A study of Mus musculus with 24 samples.

Results

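The genes described here encode the protein folding machinery of the endoplasmic reticulum (ER) and the unfolded protein response that controls it. The 36 members are a list of gene symbols, and all 36 were found among the 17721 mouse genes of the table that the authors deposited. The table compares the daily rhythm of each gene in epidermal cells, taken off the back skin with dispase, of mice with Bmal1 (Arntl) knocked out by a Cre recombinase under the keratin 14 promoter, called EpiKO, with that in wild-type (WT) epidermis. The EpiKO group holds 24 male C57BL/6 mice of 8 weeks, 4 at each of 6 zeitgeber times (ZT, hours after lights on) 4 h apart, under 12 h of light. Keratin 14 is active in basal keratinocytes, and by the labels the clock was absent in the epidermis and kept elsewhere. The table gives 1 fit per gene over all libraries and no value per library, so no spread between animals, no standard error and no sequencing depth can be given, and no test across animals was possible. Libraries of WT mice are not among the samples described here, so genotype cannot be told apart from differences in how the groups of libraries were made.

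Secreted and membrane proteins fold in the ER with the help of Hsp70-type and Hsp90-type chaperones, lectins that hold glycoproteins and oxidoreductases that form disulfide bonds. When unfolded proteins build up, the membrane sensors IRE1 (Ern1), PERK (Eif2ak3) and ATF6 signal to the nucleus, where the transcription factors XBP1, ATF6 and ATF4 raise chaperone and degradation genes. Keratinocytes use this route for desmosomal proteins, integrins and lipid-processing enzymes, and the response is known to accompany their differentiation.

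The authors' fit weighs 5 models for each gene: no rhythm, a rhythm in EpiKO only, a rhythm in WT only, the same rhythm in both, or different rhythms in both. The weights of a gene sum to 1, and a gene was put in the class of its largest weight where that was at least 0.5. A weight ranks the models of a gene against each other and is not a p-value. Where the same rhythm was chosen, the table holds 1 curve for both genotypes, so equal amplitudes and peak times there are set by the model.

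Of the 36 ER folding genes, 18 were assigned the same rhythm in EpiKO and WT, a share of 50%, against 16.7% of all genes in the table. No rhythm was assigned to 11 members, against 56.7% of all genes. Eif2ak3 was the 1 member assigned a rhythm in EpiKO only (4.31% of all genes) and Ppib the 1 assigned a rhythm in WT only (8.41% of all genes). No member was assigned different rhythms in both (2.65% of all genes), although the weights of that model summed to 1.92 over the members. The remaining 5, Dnajb9, Hspa13, Sec63, Sel1l and Derl3, had no weight of at least 0.5 and stayed unassigned, against 11.3% of all genes. Members just inside the limit were Ppib (0.530), Uggt1 (0.538), Edem3 (0.545), Hyou1 (0.564) and Hsp90b1 (0.567), and those just outside were Hspa13 (0.474) and Sel1l (0.435), per the authors' deposited table. Summed over the models with a rhythm in that genotype, 17 members had a weight of at least 0.9 for a rhythm in EpiKO, against 14.2% of all genes, and 15 in WT, against 20.2% of all genes. Both held for 14 members. The share of all genes for which both held was not counted, and cannot exceed the 14.2% for EpiKO. Counted by class, 19 members were rhythmic in EpiKO (23.6% of all genes) and 19 in WT (27.7% of all genes).

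**Figure D1:**
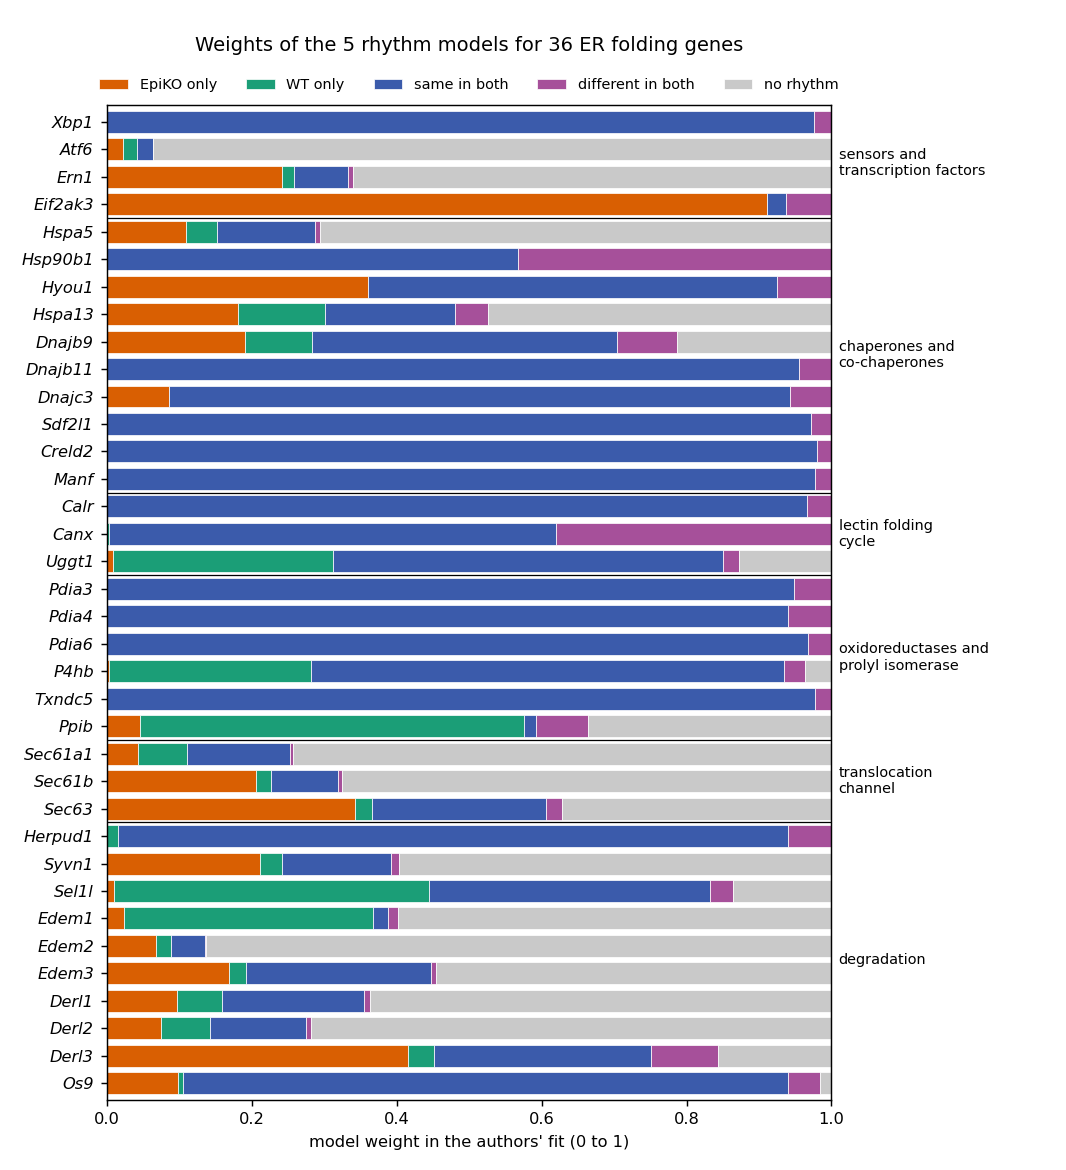
Stacked bars give the weight of each of the 5 rhythm models (0 to 1) for the 36 ER folding genes, grouped by role. The weight of the same rhythm in both fills most of the bar for 11 genes (at least 0.9), most of them chaperones and oxidoreductases. No rhythm is assigned to 10 of the 17 sensors, channel subunits and degradation genes, a share close to the 56.7% of all genes.

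Of the shared rhythms, 16 of 18 peaked in the dark phase. Of the 18 members, 9 peaked between ZT16 and ZT20 and 7 between ZT20 and ZT24, against 29.2% and 11.5% of the 2954 same-rhythm genes of the table. These 16 lay between ZT18.0 and ZT21.4, with a mean of ZT20.0. The other 2, Os9 at ZT7.05 and Herpud1 at ZT10.3 per the authors' deposited table, peaked in the light phase, where 25.2% (ZT4 to ZT8) and 17.7% (ZT8 to ZT12) of same-rhythm genes had their peak. None of the 18 peaked between ZT0 and ZT4 or between ZT12 and ZT16, against 7.31% and 9.14% of same-rhythm genes. Over all 18 the circular mean was ZT19.9. The median amplitude, as peak over trough of the fitted curve, was 1.42-fold for the 18 members and 1.24-fold for all same-rhythm genes, and 14 of the 18 members were above that median of all genes. Members ranged from 1.1-fold to 2.40-fold.

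**Figure D2:**
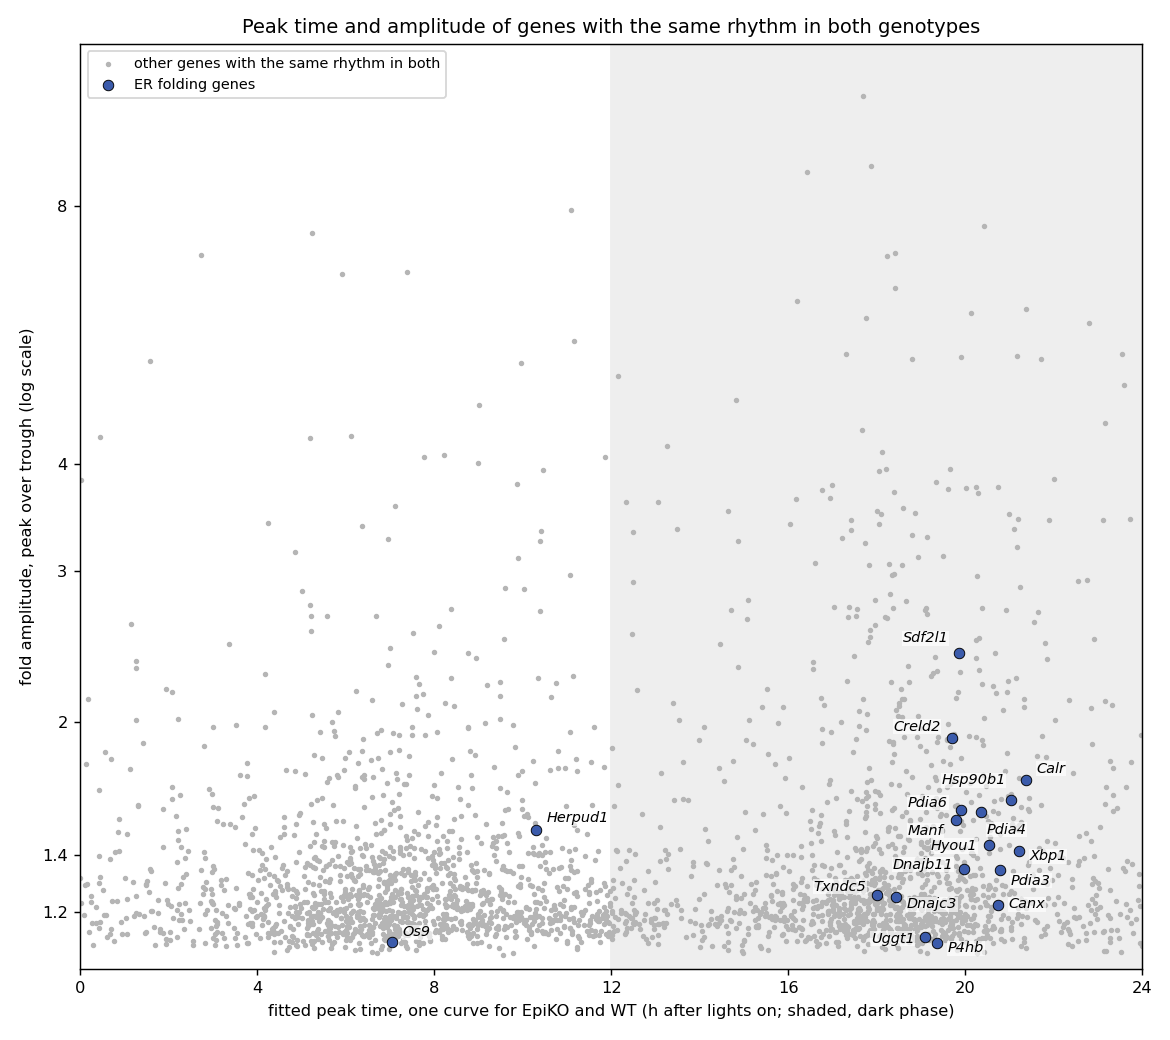
Each point is a gene with the same rhythm in both genotypes, placed by fitted peak time (hours after lights on, dark phase shaded) and fold amplitude (peak over trough, log axis). The 16 dark-phase ER folding genes form a group between ZT18.0 and ZT21.4, from P4hb at 1.1-fold to Sdf2l1 at 2.40-fold, and Os9 and Herpud1 stand apart in the light phase.

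Promoters of the members were read for the ER stress response element (ERSE), the site known to bind NF-Y at its CCAAT part and ATF6 or XBP1 at its CCACG part. The sequences are RefSeq's, build GRCm38.p6, from 250 bases before to 50 bases after each transcript start on the gene's strand, and 30 of the 36 members matched an entry by symbol. The exact letters CCAAT and, after 9 bases of any kind, CCACG, searched on both strands like all motifs here, occurred in 39 of all 32851 promoters (0.119%) and in the promoters of 9 of the 30 members: Hspa5, Hsp90b1, Dnajc3, Creld2, Calr, Canx, Pdia6, Syvn1 and Derl3. The related ERSE-II, ATTGG and CCACG with 1 base of any kind between them, occurred in 12 promoters (0.0365%), among them those of Dnajb11 and Herpud1. The XBP1-type element TGACGTGG was found in 222 promoters (0.676%), among them that of Txndc5. An E-box, CACGTG, the letters that CLOCK and BMAL1 are known to bind, was found in 2349 promoters (7.15%) and in those of Calr, Dnajb9, Txndc5 and Derl3. The letters CCAAT alone, which are part of the ERSE and, reversed and complemented, of the ERSE-II, were found in 37.4% of all promoters and in 24 of the 30 members. The motifs were chosen after the rhythm classes had been seen, and a match is a string of letters, not a measured binding site. The ERSE is a known site of this response and the members are genes of the response, so its share among them is not an independent result.

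Promoters of 6 members are shown in full, chosen as the most used reference gene of the response (Hspa5), the largest amplitudes among the same-rhythm members (Sdf2l1, Creld2, Calr and Hsp90b1) and the light-phase gene with an ERSE-II (Herpud1). Capitals mark the fixed letters of an ERSE or ERSE-II, which read CGTGG and ATTGG where the ERSE lies on the opposite strand. The Sdf2l1 window holds neither string.
Hspa5 (chr2:34771840-34772139, plus strand): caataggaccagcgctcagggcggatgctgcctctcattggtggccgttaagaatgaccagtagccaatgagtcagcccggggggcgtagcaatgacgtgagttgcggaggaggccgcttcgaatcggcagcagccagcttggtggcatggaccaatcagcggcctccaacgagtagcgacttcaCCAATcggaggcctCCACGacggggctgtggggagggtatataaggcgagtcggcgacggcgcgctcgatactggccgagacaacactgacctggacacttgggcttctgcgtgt
Sdf2l1 (chr16:17132334-17132633, minus strand): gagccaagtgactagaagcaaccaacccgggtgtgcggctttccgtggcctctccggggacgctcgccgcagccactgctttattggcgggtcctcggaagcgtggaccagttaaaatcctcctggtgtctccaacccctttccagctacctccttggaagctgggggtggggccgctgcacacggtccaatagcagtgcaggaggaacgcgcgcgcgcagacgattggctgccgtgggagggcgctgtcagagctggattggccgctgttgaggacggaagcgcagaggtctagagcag
Creld2 (chr15:88819396-88819695, plus strand): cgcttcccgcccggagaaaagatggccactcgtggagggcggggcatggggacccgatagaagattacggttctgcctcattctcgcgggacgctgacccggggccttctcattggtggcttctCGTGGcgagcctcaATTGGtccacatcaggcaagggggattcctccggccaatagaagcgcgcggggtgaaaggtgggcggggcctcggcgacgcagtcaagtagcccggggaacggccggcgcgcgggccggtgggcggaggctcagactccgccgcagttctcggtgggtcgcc
Calr (chr8:84846882-84847181, minus strand): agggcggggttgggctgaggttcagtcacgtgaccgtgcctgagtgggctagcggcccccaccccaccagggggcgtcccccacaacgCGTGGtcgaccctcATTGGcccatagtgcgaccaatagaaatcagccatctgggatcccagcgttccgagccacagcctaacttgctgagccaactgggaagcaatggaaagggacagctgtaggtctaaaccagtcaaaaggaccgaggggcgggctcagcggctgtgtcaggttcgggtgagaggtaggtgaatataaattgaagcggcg
Hsp90b1 (chr10:86705395-86705694, minus strand): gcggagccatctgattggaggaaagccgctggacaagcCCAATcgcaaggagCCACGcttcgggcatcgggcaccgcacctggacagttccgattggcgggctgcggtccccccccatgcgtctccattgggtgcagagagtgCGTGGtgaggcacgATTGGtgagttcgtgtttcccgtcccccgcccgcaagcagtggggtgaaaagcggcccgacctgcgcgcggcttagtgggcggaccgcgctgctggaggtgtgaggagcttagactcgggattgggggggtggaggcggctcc
Herpud1 (chr8:94386179-94386478, plus strand): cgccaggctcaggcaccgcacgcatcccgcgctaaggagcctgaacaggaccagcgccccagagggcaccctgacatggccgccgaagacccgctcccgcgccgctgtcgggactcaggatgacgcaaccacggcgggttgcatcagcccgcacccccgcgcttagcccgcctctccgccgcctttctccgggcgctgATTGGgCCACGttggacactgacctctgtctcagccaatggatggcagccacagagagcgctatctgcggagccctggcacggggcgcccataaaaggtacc

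The matches in the other promoters are shown with 4 bases on either side, with the same capitals, to let the spacing be compared.
Dnajc3 (chr14:118937823-118937849, plus strand): acaaCCAATcagcgccaaCCACGaccc
Canx (chr11:50325796-50325822, minus strand): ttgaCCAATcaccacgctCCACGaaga
Pdia6 (chr12:17266487-17266513, plus strand): gagaCCAATgaaaggcggCCACGgcgt
Syvn1 (chr19:6046528-6046554, plus strand): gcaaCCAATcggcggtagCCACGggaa
Derl3 (chr10:75893238-75893264, plus strand): ctacCGTGGgacttccccATTGGctag
Dnajb11 (chr16:22857848-22857866, plus strand): ggcgATTGGcCCACGcctg

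The ERSE began 65 bases before the transcript start in Hspa5, 98 in Pdia6, 105 in Dnajc3, 126 in Creld2, 145 in Canx and 162 in Calr, and Hsp90b1 had matches at 107 and 212 bases. Of the 11 members with an ERSE or ERSE-II, 8 fell in the same-rhythm class, which held 16.7% of all genes. Hspa5 and Syvn1 were classed as without rhythm (56.7% of all genes), and Derl3 was unassigned (11.3% of all genes). Of the 19 members whose promoter held neither, 8 fell in the same-rhythm class. Of the rest, 6 were classed as without rhythm, 3 were unassigned, and EpiKO only and WT only held 1 each. The motifs were chosen with the classes known, and the difference between these groups was not tested. Herpud1 and Dnajb11 share the ERSE-II letters and peaked at ZT10.3 and ZT20.0 per the authors' deposited table.

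**Figure D3:**
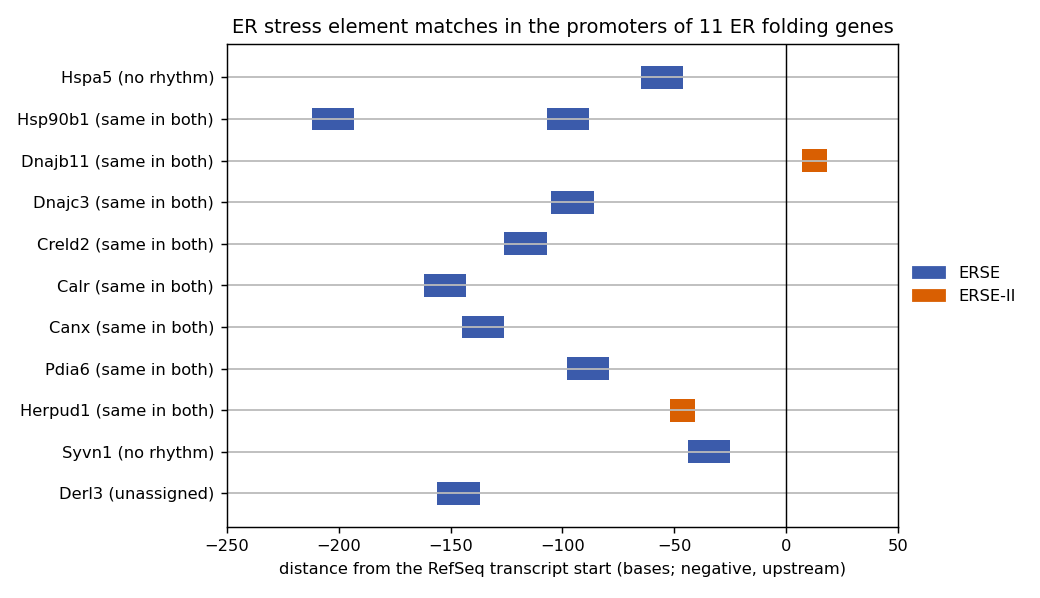
Bars mark ERSE and ERSE-II matches in the promoters of 11 ER folding genes, by distance in bases from the RefSeq transcript start, with the rhythm class of each gene in parentheses. Matches lie from 212 bases before the start (Hsp90b1) to just after it (Dnajb11), and the genes assigned no rhythm have theirs at 65 (Hspa5) and 44 bases (Syvn1) before it.

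Sensors and transcription factors differed among themselves. Xbp1 (ENSMUSG00000020484, chromosome 11, 5520659 to 5525893, mm10), whose mRNA is spliced by IRE1 to make an active factor, had the same rhythm in both with a weight of 0.976, an amplitude of 1.41-fold and a peak at ZT21.2 per the authors' deposited table. Counts per gene do not separate its spliced and unspliced forms. Eif2ak3 (chromosome 6, 70844515 to 70905245), the kinase PERK that slows translation, was assigned a rhythm in EpiKO only, with a weight of 0.910, 1.3-fold and a peak at ZT1.49 per the authors' deposited table. Its weight for any rhythm in WT was 0.0896, and 5.66% of the 51-base windows of its transcripts also occur in an antisense gene, Gm43292. Atf6 was assigned no rhythm with a weight of 0.936 per the authors' deposited table, the largest such weight among the members. Ern1, which encodes IRE1, also had none, at 0.66 per the authors' deposited table, with a weight of 0.241 left on a rhythm in EpiKO only.

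Chaperones and their partners had the same rhythm in 7 of 10 cases, against 16.7% of all genes, and these 7 peaked between ZT18.4 and ZT21.0. Sdf2l1 (ENSMUSG00000022769, chromosome 16, 17130138 to 17132383), a partner of ER J-domain proteins, had the largest amplitude of the 18 same-rhythm members, 2.40-fold at ZT19.9 per the authors' deposited table, larger than that of 94.7% of same-rhythm genes. Creld2, a secreted protein with disulfide isomerase activity that is induced by ER stress, had 1.92-fold at ZT19.7 per the authors' deposited table. Manf, another ER stress-induced secreted protein, had 1.53-fold at ZT19.8 per the authors' deposited table, and 6.11% of its windows are shared, chiefly with the antisense gene 4930524O07Rik. Sdf2l1, Creld2 and Manf had weights from 0.972 to 0.980 for the same rhythm. The J-domain co-chaperones of BiP followed with smaller amplitudes, Dnajb11 with 1.35-fold at ZT20.0 and Dnajc3 with 1.25-fold at ZT18.4 per the authors' deposited table.

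The large ER chaperones did not all share this call. Hsp90b1, the ER form of Hsp90, had a fitted 1.62-fold rhythm at ZT21.0 per the authors' deposited table, with weights of 0.567 for the same rhythm and 0.432 for different rhythms, so the weight was divided over whether the rhythms were equal, not over whether there was one. Windows shared with other genes made up 9.63% of Hsp90b1, chiefly with the antisense gene 1810014B01Rik. Hyou1, a nucleotide exchange factor of BiP, had 1.44-fold at ZT20.5 per the authors' deposited table, with a weight of 0.999 for any rhythm in EpiKO and 0.639 in WT. Hspa5 (ENSMUSG00000026864, chromosome 2, 34771970 to 34777547), which encodes BiP, the central Hsp70 of the ER, was assigned no rhythm with a weight of 0.706 per the authors' deposited table. Its weights for any rhythm were 0.251 in EpiKO and 0.184 in WT, while among its J-domain partners Dnajb11 and Dnajc3 had the same rhythm and Dnajb9 and Sec63 were unassigned. Dnajb9, a J-domain protein that holds IRE1 inactive, was unassigned, and its best model at 0.421 was a shared 1.82-fold rhythm at ZT7.13 per the authors' deposited table. Of its windows, 5.38% are shared with Gm6568. Hspa13, an atypical microsomal Hsp70, was unassigned too, with 0.474 on no rhythm per the authors' deposited table.

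The glycoprotein lectins and the enzyme that works with them, 3 of 3, had the same rhythm, against 16.7% of all genes, and 3 genes are few to compare. Calr (ENSMUSG00000003814, chromosome 8, 84841850 to 84846934), the soluble lectin calreticulin, had 1.71-fold at ZT21.4 with a weight of 0.967 per the authors' deposited table. Its membrane-bound relative calnexin (Canx) had 1.22-fold at ZT20.7 per the authors' deposited table, with weights of 0.617 for the same and 0.379 for different rhythms. Uggt1, which marks unfolded glycoproteins for another round of lectin binding, had 1.12-fold at ZT19.1 per the authors' deposited table, an amplitude above that of 6.40% of same-rhythm genes. Its weight for any rhythm was 0.569 in EpiKO and 0.863 in WT.

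Oxidoreductases had the same rhythm in 5 of 5 cases, and with the prolyl isomerase Ppib the role had it in 5 of 6, against 16.7% of all genes. Pdia6 and Pdia4, protein disulfide isomerases, had 1.58-fold at ZT19.9 and 1.57-fold at ZT20.4 per the authors' deposited table. Pdia3, the isomerase that works with the lectins, had 1.34-fold at ZT20.8 with a weight of 0.948 per the authors' deposited table. Txndc5 had 1.26-fold at ZT18.0 per the authors' deposited table, the earliest peak of the dark-phase members, and 8.79% of its windows are shared with other genes. P4hb, the founding protein disulfide isomerase, had 1.1-fold at ZT19.4 with a weight of 0.654 per the authors' deposited table. Its weight for any rhythm was 0.685 in EpiKO and 0.959 in WT. Ppib, a prolyl isomerase (cyclophilin B), was assigned a 1.1-fold rhythm in WT only, with a peak at ZT23.7 and a weight of 0.530 per the authors' deposited table. The call is uncertain, since 30.6% of Ppib windows are shared with other genes, chiefly with Snx22 on the opposite strand.

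None of the 3 members of the translocation channel was assigned a rhythm. No rhythm was assigned to 2 and 1 was unassigned, against 56.7% and 11.3% of all genes, and 3 genes are few to compare. Sec61a1, the pore subunit, and Sec61b, a small accessory subunit, were assigned none with weights of 0.743 and 0.675 per the authors' deposited table. Shared windows made up 6.47% of Sec61a1, chiefly with the antisense gene Gm44170, and 17.1% of Sec61b, chiefly with Gm10320. Sec63, which couples BiP to the channel, was unassigned, with 0.372 on no rhythm and 0.343 on a rhythm in EpiKO only per the authors' deposited table.

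Of the 10 degradation genes, 6 were assigned no rhythm and 2 the same rhythm, shares close to the 56.7% and 16.7% of all genes. The 6 were the ubiquitin ligase Syvn1, the mannosidase-like proteins Edem1, Edem2 and Edem3, which tag glycoproteins for removal, and the derlins Derl1 and Derl2, parts of the export channel. Their weights for no rhythm ran from 0.545 (Edem3) to 0.862 (Edem2) per the authors' deposited table. Herpud1 (chromosome 8, 94386438 to 94395377), a scaffold of the ligase complex, had a shared 1.5-fold rhythm with a weight of 0.924 and its peak at ZT10.3 per the authors' deposited table. Os9, a lectin that delivers glycoproteins to the ligase, had 1.11-fold at ZT7.05 with a weight of 0.835 per the authors' deposited table. Both degradation genes with a shared rhythm thus peaked in the light phase, as none of the 15 same-rhythm chaperones, lectins and oxidoreductases did. Sel1l, the partner of Syvn1, was unassigned, with 0.435 on a 1.17-fold rhythm in WT at ZT21.7 and 0.387 on the same rhythm per the authors' deposited table. Derl3 was unassigned, with 0.416 on a 3.12-fold rhythm in EpiKO at ZT22.5 per the authors' deposited table. Its mean level was 2.11 in EpiKO and, in WT, 2.81 on the log2 scale per the authors' deposited table, against at least 7.55 for every other member in either genotype.

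By role, the same rhythm was assigned to 15 of the 19 chaperones, lectins, oxidoreductases and the prolyl isomerase. It was assigned to 3 of the 17 sensors, channel and degradation genes, or 17.6%, close to the 16.7% of all genes. The grouping by role was made with the classes known, so it is a description and was not tested. In related lists, not divided in this way, the same rhythm was assigned to 8 of 20 other ER oxidoreductases and prolyl isomerases and to 8 of 25 other genes of translocation, signal peptide removal and glycosylation. It was assigned to 6 of 25 genes of COPII vesicles with cargo and KDEL receptors, to 6 of 20 other degradation genes and to 6 of 20 other genes of signalling and the PERK arm. Across these 5 lists together 34 of 110 genes, or 30.9%, had the same rhythm, against 16.7% of all genes, and 26 of the 34 peaked between ZT16 and ZT24, against 40.7% of all same-rhythm genes. A list of 21 cytosolic and mitochondrial chaperones had the same rhythm in 10 cases, all with peaks between ZT16.4 and ZT20.2.

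Among these genes, Pdia5, a further disulfide isomerase, had a shared 1.73-fold rhythm at ZT20.6 per the authors' deposited table. Prdx4, an ER peroxidase, had different rhythms, 2.03-fold at ZT6.11 in EpiKO and 1.38-fold at ZT2.23 in WT per the authors' deposited table. Fkbp10 and Fkbp11 had shared rhythms of 1.49-fold at ZT0.86 and 1.34-fold at ZT19.8 per the authors' deposited table. Rpn1 and Ostc of the oligosaccharyltransferase had shared rhythms of 1.3-fold and 1.32-fold, both at ZT19.6 per the authors' deposited table. Sec11c, a signal peptidase subunit, had 1.31-fold at ZT20.7 per the authors' deposited table. Sec62 of the same list was assigned a 1.3-fold rhythm in WT only at ZT11.7 per the authors' deposited table. Sec23b of the COPII coat had a shared 1.22-fold rhythm at ZT20.0, while its coat partner Sec24d was assigned a 1.44-fold rhythm in WT only at ZT20.0 per the authors' deposited table. Mcfd2 and Tmed2 of this list were assigned rhythms in EpiKO only, 1.19-fold at ZT16.5 and 1.17-fold at ZT15.4 per the authors' deposited table. In the signalling list, Creb3l1 and Wfs1 shared rhythms of 1.59-fold at ZT19.4 and 1.39-fold at ZT19.1 per the authors' deposited table. Creb3l2 was assigned a 1.32-fold rhythm in WT only at ZT0.262 per the authors' deposited table. Of the PERK arm, Atf4 was assigned no rhythm (0.870) and Ddit3, which encodes CHOP, a 1.27-fold rhythm in EpiKO only at ZT0.877 per the authors' deposited table. Chac1 was assigned a 2.05-fold rhythm in WT only at ZT15.5, with a weight of 0.695 and a mean level of 3.74 (log2), per the authors' deposited table. Atf3, Trib3, Ppp1r15a and Ppp1r15b of this list were also assigned no rhythm, and Asns a 1.31-fold rhythm in WT only at ZT18.8, per the authors' deposited table. Of the other degradation genes, the 6 with a shared rhythm peaked from ZT3.24 (Faf2) to ZT22.3 (Rnf5) per the authors' deposited table. Between ZT16 and ZT24 lay 1 of the 6, against 40.7% of all same-rhythm genes. Fam8a1, at ZT15.0, also peaked in the dark phase, and Herpud2 had 1.14-fold at ZT6.98 per the authors' deposited table. Vcp was assigned a 1.22-fold rhythm in WT only at ZT0.635 per the authors' deposited table. Erlec1 had different rhythms, 1.29-fold at ZT9.91 in EpiKO and 1.21-fold at ZT3.41 in WT per the authors' deposited table.

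**Figure D4:**
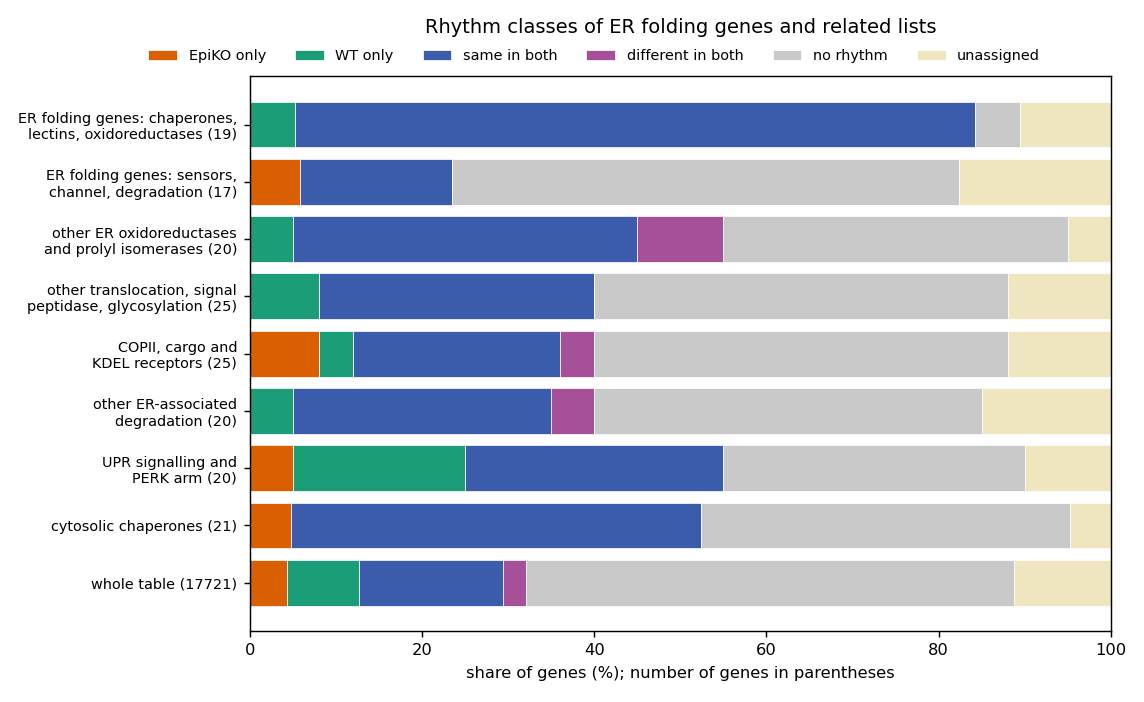
Stacked bars give the share of genes (%) in each rhythm class for the ER folding genes divided by role, for related lists and for the whole table, with the number of genes in parentheses. The blue part, the same rhythm in both genotypes, covers 15 of 19 genes of the folding roles, 10 of 21 cytosolic and mitochondrial chaperones and 16.7% of the whole table.

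Mean levels over the day were compared between genotypes by the authors' weights for 1 shared mean or 2 separate ones, with a difference called at a weight of at least 0.5. Such calls covered 70.1% of all genes, so a call by itself says little. In bulk epidermis, fewer cells of a type cannot be told apart from less RNA per cell. Of the 36 members, 21 were called higher in EpiKO (32.7% of all genes) and 9 lower (37.4% of all genes). The other 6, Sdf2l1, Creld2, Dnajb9, Herpud1, Uggt1 and Sec63, were fitted with 1 mean, so their deposited levels in EpiKO and WT are equal. The median difference, EpiKO minus WT on the log2 scale, was 0.15 over the members and 0.00 over all genes, whose quartiles were -0.45 and 0.21. Genes fitted with 1 mean have a difference of exactly 0, and the median of all genes falls among these tied values. Over the genes with a called difference the median was -0.14. Differences were within 0.5 either way for 29 members, and with that minimum 4 were higher and 3 lower. The shares of all genes at that minimum were not counted, so these 2 counts have no background beside them.

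The largest difference upward was that of Derl1, whose mean was 10.33 in EpiKO against 8.90 in WT on the log2 scale, 2.68-fold higher per the authors' deposited table. Of its windows, 5.47% are shared with Gm35638. P4hb followed with 12.61 in EpiKO and 11.71 in WT (1.86-fold higher), and Calr with 12.76 in EpiKO and 12.12 in WT (1.56-fold higher), per the authors' deposited table. Hspa13 had 9.15 in EpiKO and 8.62 in WT (1.44-fold higher) per the authors' deposited table. Pdia6 (1.36-fold), Pdia3 (1.35-fold), Derl2 (1.32-fold), Ern1 (1.31-fold) and Xbp1 (1.29-fold) were also higher in EpiKO per the authors' deposited table. Hspa5 was 1.21-fold higher with a weight of 0.50 per the authors' deposited table, right at the limit. For each role the split was 3 higher and 1 lower of 4 sensors, 6 higher and 1 lower of 10 chaperones, 2 higher and 0 lower of 3 lectin-cycle genes, 5 higher and 1 lower of 6 oxidoreductases and prolyl isomerase, 0 higher and 2 lower of 3 channel genes, and 5 higher and 4 lower of 10 degradation genes.

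Hyou1 (ENSMUSG00000032115, chromosome 9, 44379490 to 44392369) had the largest difference of any member, 10.49 in EpiKO against 13.19 in WT, a difference of -2.70 on the log2 scale per the authors' deposited table. It did not share the direction of Hspa5 and Hsp90b1, with which it works. Of all genes, 8.70% had a lower difference than Hyou1. In GENCODE M21 its exons overlap no other gene on either strand, and 0.192% of its windows are shared. The gene models and settings of the authors' counting are not stated, and the part of counting in this difference was not tested. The other members called lower were Derl3 (-0.69), Sec61b (-0.52), Ppib (-0.33), Eif2ak3 (-0.29), Sec61a1 (-0.26), Syvn1 (-0.24), Os9 (-0.22) and Sel1l (-0.07) per the authors' deposited table. Leaving out the members with over 5% shared windows, Derl1, Ppib, Eif2ak3, Sec61a1 and Sec61b among them, left 5 lower and 17 higher.

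**Figure D5:**
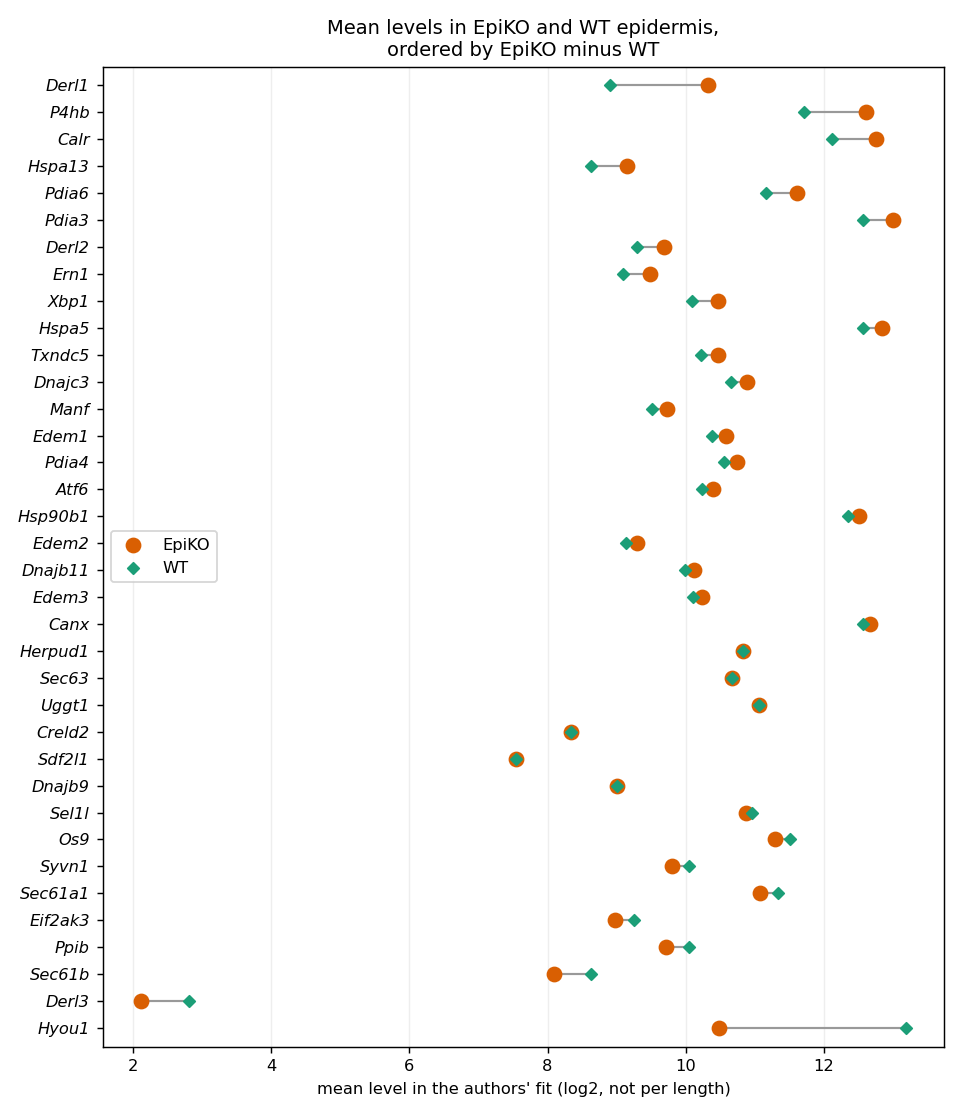
Circles give the mean level in EpiKO and diamonds the mean level in WT (log2, not per length) for each of the 36 ER folding genes, ordered by EpiKO minus WT. Derl1, P4hb and Calr at the top are higher in EpiKO, most pairs lie within 0.5 of each other, and Hyou1 at the bottom has 10.49 in EpiKO and 13.19 in WT.

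How much gene models overlap moved with the mean differences over the whole table. The median difference was -3.86 for the 53 genes with over 75% of their exonic bases covered by a gene on the opposite strand, and 0 for the 12594 genes with none. For the members that overlap was at most 25% (Ppib), and its part in their differences was not tested.

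Of the labelled cell type, 8 of 8 keratinocyte markers were measured, with levels between 14.12 and 17.73 in EpiKO and between 13.73 and 17.82 in WT on the log2 scale. Of these, 3 were called higher in EpiKO and 4 lower, from -0.55 (Dsg1a) to 0.50 (Krtdap). The targeted gene, Arntl, had a mean of 9.65 in EpiKO and 9.50 in WT over the whole gene, with no rhythm in EpiKO and 4.65-fold in WT per the authors' deposited table, so the mean level of the gene was not lower in EpiKO. Markers of other cells were called different too. Of plasma cells, which are rich in ER, and of B cells, 4 of 5 markers were measured. Jchain (-1.22 in EpiKO, 5.50 in WT), Mzb1 (2.12 and 4.05) and Cd79a (0.57 and 1.37) were lower in EpiKO per the authors' deposited table. Sdc1, also a keratinocyte gene, was higher (13.94 in EpiKO and 13.33 in WT) per the authors' deposited table. Of 6 fibroblast markers 3 were higher in EpiKO, the levels running from 3.19 to 8.23 in EpiKO and from 1.90 to 7.99 in WT. Higher too were 3 of 4 Langerhans and dendritic cell markers, with 7.28 to 10.82 in EpiKO and 5.80 to 10.82 in WT, and 3 of 3 endothelial markers, with 0.56 to 3.42 in EpiKO and -1.77 to 2.91 in WT. Lower were 2 of 3 muscle markers, with -1.16 to 2.21 in EpiKO and 0.62 to 9.90 in WT. Of 4 melanocyte markers 1 was lower, of 4 sebocyte markers 1 was higher, and the 2 measured of 4 T cell markers were fitted with 1 mean. The part of these cells in the levels of the ER folding genes was not tested.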

How the data were processed

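The 1 table used holds the authors' dryR comparison of EpiKO with WT epidermis, with no values per library, so depth is unknown and no interval or replicate test was possible. Reads were handled with featureCounts 1.6.0, edgeR, HISAT2 2.2.1 on mm10, Trimmomatic 0.36 and SAMtools 1.3.1, per the submitters' processing notes, which give neither order nor settings. Whether counting used strand is not stated there. Model weights are deposited scores from 0 to 1, per the file headers made from the Bayesian information criterion. The deposited mean levels are on the log2 scale and not per length. Columns not labelled WT were read as EpiKO, the remaining side of the comparison. Amplitude columns equal 2 times the root of the summed squared coefficients, within 1e-06, for 5062 EpiKO and 5914 WT rhythms, so folds are 2 to that power. Model 1 has no rhythm, 2 one in EpiKO, 3 one in WT, 4 a shared one and 5 unequal ones, as the given parameters show.

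The members and the 6 related lists were chosen with earlier results of these data known. Every member is accounted for, and of the lists up to 4 rhythmic genes by amplitude were to be named. This was not done for the cytosolic and mitochondrial chaperones. Atf4, Ddit3, Atf3, Trib3, Ppp1r15a, Ppp1r15b, Asns, Rnf5, Faf2 and Fam8a1 were named after their values were seen. A symbol was found for 17720 of 17721 identifiers, and all 131 list genes were in the table, 2 under an older symbol. Gene positions, exon overlaps and shared windows of 51 bases (either strand) come from GENCODE M21 on mm10. Alternatives were other weight limits, a minimum amplitude, a minimum level, summed weights, a minimum difference, centring and members with few shared windows. The circular mean was tested on simulated data. Python 3.11.15, NumPy 2.4.6, pandas 2.3.3 and matplotlib 3.10.9 were used.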

Additional observations from a re-analysis of the deposited data

How the results depend on the processing

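The number of members with the same rhythm was 18 as reported, 19 with no minimum weight or one of 0.4, 13 with 0.8, 15 with a minimum amplitude of 0.25 (log2), 18 without genes under the 0.25 quantile of mean level, 15 of the 27 members with at most 5% shared windows, and 18.1 as a sum of weights. Their mean peak stayed between ZT19.8 and ZT20.0 under these settings. Classes with few members moved, and so did the class of no rhythm. EpiKO only and WT only held 2 members each with no minimum weight and with 0.4, and neither held any (0) among members with few shared windows. WT only also held 0 with a weight of 0.8 and with a minimum amplitude of 0.25. No rhythm was assigned to 2 members with a weight of 0.8, against 11 as reported. Most of these calls, that of Hspa5 (0.706) among them, thus rest on weights under 0.8. Summed weights were 3.92 for EpiKO only, 2.56 for WT only and 1.92 for different rhythms. With a minimum mean difference of 0.5, 4 members were higher and 3 lower, and the shares of all genes at that minimum were not counted. With few shared windows 5 were lower. Centred on the median of all genes with a called difference (-0.14), the members' median difference was 0.29. The centring on those genes and the mean levels with few shared windows were added after seeing the data. Leaving out replicates could not be run, since the table has no values per library. No paired analysis was possible because no column carries a replicate number.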

Other observations

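Outside the ER folding genes, the exact ERSE letters occurred in the promoters of 14 further genes of the table. Of these, 8 were assigned no rhythm and 2 the same rhythm, close to the 56.7% and 16.7% of all genes. Ero1b, from the list of other ER oxidoreductases, was among those with no rhythm (0.874), as was Calr4 (0.841), per the authors' deposited table. Alg12, a mannosyltransferase that builds the sugar chain for glycosylation in the ER, was 1 of the 2 with the same rhythm, with 1.21-fold at ZT21.4 per the authors' deposited table. Adcy3 was the other, with 1.16-fold at ZT11.5 per the authors' deposited table. The ERSE-II letters occurred in 7 further genes of the table. Of these, 1 had the same rhythm, at ZT17.4, and 3 no rhythm, against 16.7% and 56.7% of all genes. These genes were named after their values were seen.

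Overlap on the same strand moved with the mean differences too: the median difference, EpiKO minus WT, was -5.33 (log2) for the 156 genes with over 75% of their exonic bases covered by another gene on the same strand, and 0 for the 16254 genes with none. Hyou1 is among the genes with none in GENCODE M21, and the part of overlap in the members' differences was not tested.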
